A study of Saccharomyces cerevisiae with 4 samples.

Results

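The genes around HIS4 and LEU2 lie on the left arm of Saccharomyces cerevisiae chromosome III, in a stretch of 36.9 kb from SRO9 to NFS1 that is often engineered in the SK1 background. Described here are 10 of its protein-coding genes, of 6645 nuclear genes with a recovered value: SRO9, GFD2, GRX1, LSB5, STE50, HIS4, BIK1, RNQ1, LEU2 and NFS1. They were picked by name, with the strain differences of these same libraries already known from earlier results. Their strain differences are therefore given as a description, with no test.

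HIS4 and LEU2 encode enzymes of histidine and leucine synthesis, and both have long served as nutritional markers. In many SK1 strains a LEU2 fragment was placed beside HIS4 to make a recombination hotspot, HIS4LEU2, at which meiotic double-strand breaks and crossovers are followed. Pch2, an AAA+ ATPase of meiotic chromosomes, removes the axis protein Hop1 and takes part in the checkpoint on recombination, while Ndt80 is the transcription factor that takes cells out of meiotic prophase.

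Messenger RNA was sequenced from SK1 cells after 4 h in sporulation medium (SPO) at 30 °C, in 2 strains with 2 samples each. The strain ndt80 lacks NDT80, and the strain ndt80pch2 lacks NDT80 and PCH2, so every sample carries the NDT80 deletion. The titles alone name pch2; the other labels of the ndt80pch2 samples give only the NDT80 deletion. The labels do not give the alleles at HIS4 or LEU2 in either strain, and whether replicates were separate cultures is not stated, so the spread between them may be technical.

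The deposited values, 1 per gene and strain, were separated into reads of 2 libraries per strain, called A and B for ndt80 and C and D for ndt80pch2. They held 1655407 to 2305666 reads over nuclear genes, and levels are given as TPM, reads per kilobase of coding length scaled to a common total. The ndt80 libraries had 710 and 776 reads of PCH2, the others 0 (limma-trend adjusted p = 0.0001154, a call lost without A or without B), with a floor of 3 reads allowing up to 1.29 TPM. No library had a read of NDT80, a limit of 1.16 TPM where the floor was highest. All 10 meiotic prophase markers had reads, with a summed level of 5047.3 to 5776.8 TPM per library. The 10 markers of haploid or mating cells summed to 35.1 to 49.2 TPM, with MFA1 and MFA2 at 0 reads throughout. A floor in TPM was not worked out for MFA1 and MFA2, so their absence is not read from this. A list of 10 genes chosen as markers of cells past the Ndt80 step summed to 845.3 to 926.2 TPM. Their means ran from 4.64 to 201.7 TPM. Every sample lacked NDT80, so reads of these genes were not taken as a sign of such cells. Fewer cells of a type and less RNA per cell cannot be told apart in these bulk samples.

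The values of the 10 genes rest on this separation, because the deposited ndt80 column averaged lists that were out of step. From its first mitochondrial row on, library A stood beside the gene that held the same row in a list without mitochondrial genes. Read in the printed order, 9.158% of 6268 later ndt80 values could be written as whole reads of both libraries, against 99.94% with the shifted list. The row of SRO9 held 2729.2 in the deposited ndt80 column because library A of SRO9 (37.9 TPM) was averaged with library B of SSA3, a heat-shock chaperone gene. GFD2 was listed there at 121.5, averaged with GIP2, and its own levels were 6.15 TPM in A and 5.62 TPM in B. LEU2 was listed at 98.32, averaged with LIP5. Taken row by row, the deposited ratio of ndt80 to ndt80pch2 was 89.66 for SRO9 and 3.555 for GFD2, and the recovered ratios were 1.204 and 0.1723. GFD2 thus changed direction between the deposited row and the recovered libraries.

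**Figure D1:**
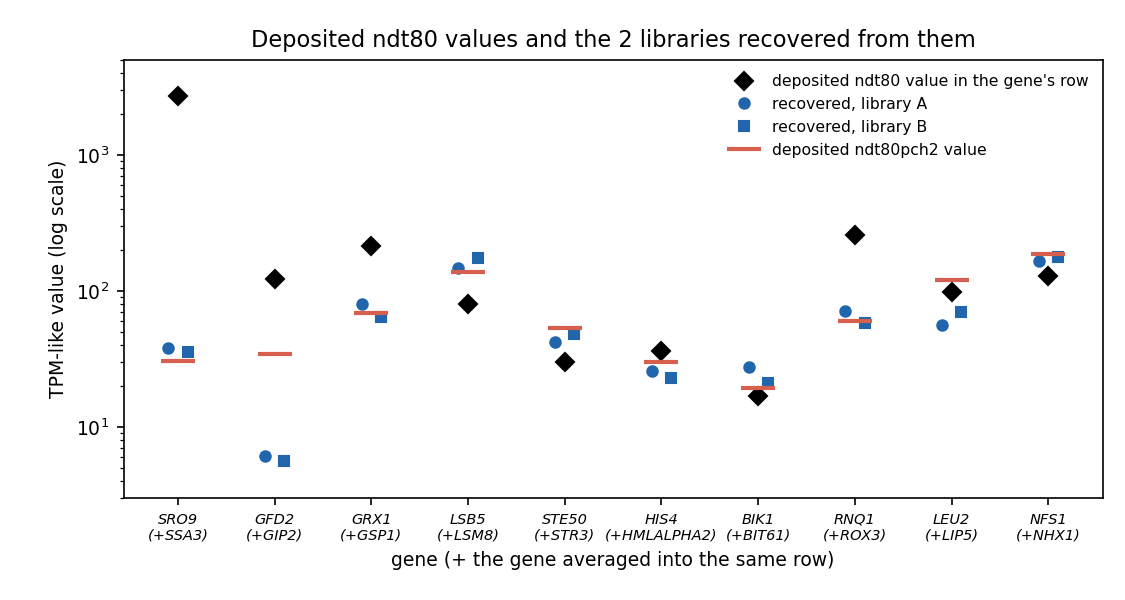
Values of the 10 genes on a TPM-like log scale: the deposited ndt80 value in each gene's row (black diamonds), the recovered ndt80 libraries A (circles) and B (squares), and the deposited ndt80pch2 value (orange bars); the gene averaged into the same row is in brackets. The deposited ndt80 value of SRO9, 2729.2, stands far above both recovered libraries, which lie at 37.9 and 35.4, and that of GFD2, 121.5, far above 6.15 and 5.62.

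By level per coding length, NFS1 and LSB5 led in ndt80, at 172.4 ± 8.78 and 161.3 ± 20.4 TPM (SD, n = 2), and their libraries overlapped. GRX1, RNQ1 and LEU2 followed at 62.8 to 72.1 TPM with overlapping neighbours, then STE50 and SRO9, then HIS4 and BIK1, which overlapped at 24.4 and 24.3 TPM. GFD2 was lowest at 5.89 TPM, a level above that of 6.07% of the 5783 tested genes. In ndt80pch2 the order began NFS1, LSB5, LEU2 and ended SRO9, HIS4, BIK1. There LEU2 stood above GRX1 and RNQ1, and GFD2 stood seventh, above SRO9, with all libraries of these neighbours apart. The level of GFD2 in ndt80pch2, 34.2 TPM, was above that of 36.9% of tested genes.

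**Figure D2:**
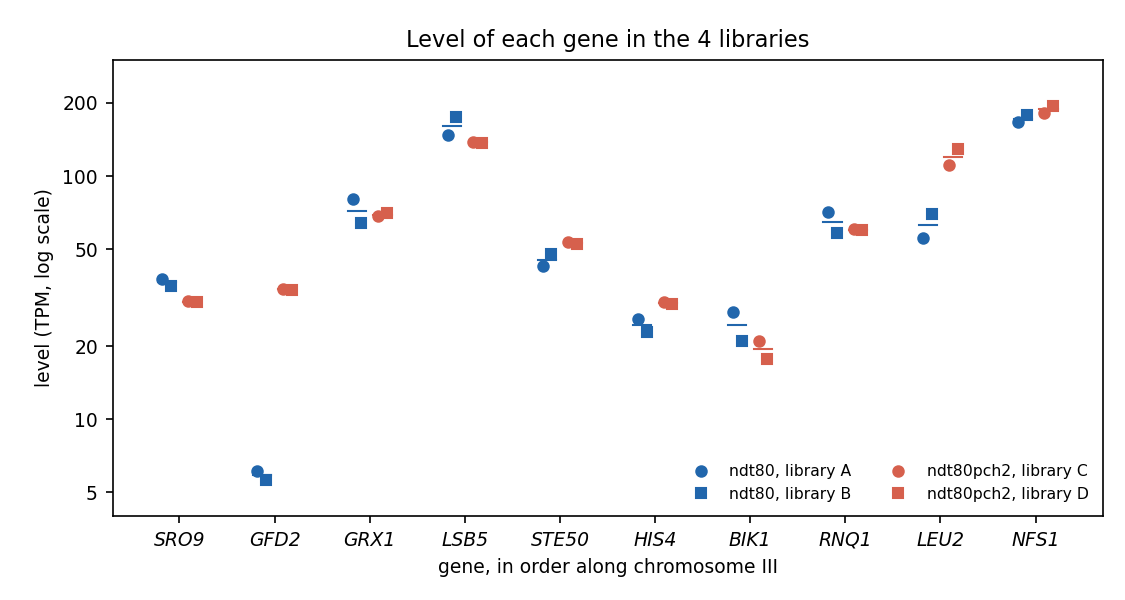
Level of each gene in TPM (log scale) in libraries A and B of ndt80 (blue) and C and D of ndt80pch2 (orange), with short lines at the strain means; genes are in order along the chromosome. GFD2 lies at 5.62 and 6.15 TPM in ndt80 and at 33.9 and 34.4 TPM in ndt80pch2, LEU2 at 55.8 and 69.9 against 110.8 and 128.8 TPM, and the strain means of the other 8 genes differ by 0.797-fold (BIK1) to 1.23-fold (HIS4).

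GFD2 (YCL036W, chromosome III, 59026 to 60726, plus strand, R64) showed the widest difference. Little is known of its protein, which the reference annotation describes as a high-copy suppressor of a mutant of Dbp5, an RNA helicase of mRNA export. Each ndt80 library held 18 of its reads, library C 82 and library D 79. These are 6.15, 5.62, 34.4 and 33.9 TPM. Both ndt80pch2 libraries lay far above both ndt80 libraries, and the libraries of a strain nearly coincided. The exact Poisson 95% interval, which covers counting error only, was 3.65 to 9.72 TPM in A and 3.33 to 8.89 in B, against 27.4 to 42.7 in C and 26.9 to 42.3 in D. The means were 5.89 ± 0.374 and 34.2 ± 0.323 TPM (SD, n = 2), a 5.80-fold difference. On the log2(TPM + 1) scale, relative to the median of all tested genes, the difference was 2.50 (SE 0.23), rank 10 of 5783 from the highest. All tested genes had a median log2 fold change of -0.15 before that subtraction, and 5% of them lay below -0.50 and 5% above 0.51 after it. Its paralog from the whole-genome duplication, YDR514C on chromosome IV, was not among the genes named by rule. It had 34.0, 32.9, 25.1 and 24.2 TPM in libraries A to D, so it was lower in ndt80pch2 without overlap, with a relative log2 difference of -0.28 (SE 0.16).

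GFD2 is read away from SRO9, with 347 bases between their coding regions, and towards GRX1, with 114 bases between them. SRO9 (YCL037C, 57374 to 58678, minus strand), a cytoplasmic RNA-binding protein with a La motif, had 85, 87, 56 and 54 reads in A to D. Its levels were 37.9, 35.4, 30.6 and 30.2 TPM, so ndt80pch2 was lower without overlap, at 0.830-fold. GRX1 (YCL035C, 60841 to 61173, minus strand), a glutaredoxin that reduces disulfides with glutathione, had 80.3, 63.8, 68.6 and 70.2 TPM from 46, 40, 32 and 32 reads. Its strains overlapped, with means of 72.1 ± 11.6 and 69.4 ± 1.17 TPM (SD, n = 2). The genes on either side of GFD2 thus stood at -0.11 (SE 0.15) and 0.10 (SE 0.14) on the relative log2 scale, against its 2.50.

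The intergenic stretch before GFD2, which it shares with SRO9, is shown because its genes had such different values. It is the window from 300 to 51 bases before the GFD2 coding start, chrIII:58726-58975, plus strand, from the RefSeq R64 reference genome, which is of strain S288C and can differ from SK1. Capitals would mark a match to any of 4 motifs searched on both strands, and this window has none.
GFD2: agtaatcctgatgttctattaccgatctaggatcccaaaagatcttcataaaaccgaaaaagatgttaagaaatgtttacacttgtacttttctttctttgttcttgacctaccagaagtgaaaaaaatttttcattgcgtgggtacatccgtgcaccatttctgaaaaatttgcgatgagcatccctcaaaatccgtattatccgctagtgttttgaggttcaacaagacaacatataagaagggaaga
The motifs were TGACTC (the sequence bound by Gcn4, activator of amino acid synthesis genes), CCGG followed by any 2 bases and CCGG again (Leu3, regulator of leucine synthesis genes), GGCGGC (the URS1 core bound by Ume6, regulator of early meiotic genes) and CACAAA (the core of the Ndt80 site). Over 5963 windows of the same length and position, 6.84%, 0.134%, 4.80% and 14.4% held them. GGCGGC and CACAAA were found in 0 of the windows of the 10 genes. A match describes letters in the reference and not a bound site.

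LEU2 (YCL018W, 91324 to 92418, plus strand), encoding beta-isopropylmalate dehydrogenase of leucine synthesis, was the other gene at least 2-fold apart relative to the median. Its reads numbered 105, 144, 170 and 193 in libraries A to D. Its levels were 55.8, 69.9, 110.8 and 128.8 TPM, or 62.8 ± 10 in ndt80 and 119.8 ± 12.8 in ndt80pch2 (SD, n = 2). The lowest ndt80pch2 library was well above the highest ndt80 library, though the libraries within each strain differed more than those of GFD2. The fold difference was 1.91, or 0.93 on the log2(TPM + 1) scale, under the 2-fold line. The log2 difference relative to the median of all genes was 1.07 (SE 0.15), rank 79 of 5783. Without library A that difference was 0.91 and without D 0.95, under the 2-fold line. LEU2 stood above 52.4% of tested genes in ndt80 and above 75.3% in ndt80pch2.

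HIS4 (YCL030C, 65934 to 68333, minus strand) encodes an enzyme with several catalytic activities in histidine synthesis. It had 107, 103, 102 and 98 reads in A to D, or 25.9, 22.8, 30.3 and 29.8 TPM. The ndt80pch2 libraries were higher without overlap, at a fold of 1.23 and a relative log2 difference of 0.44 (SE 0.17). HIS4 and LEU2 were the only ones of the 10 genes whose windows held a searched motif, and both windows are shown for those letters. The HIS4 window (chrIII:68384-68633, minus strand) overlaps the BIK1 coding region by 35 bases and holds TGACTC, in capitals, at 255, 243 and 199 bases before the coding start. The LEU2 window (chrIII:91024-91273, plus strand) holds the Leu3 motif, in capitals, at 198 bases before the coding start, and 8 of the 5963 windows hold that motif. The matches do not overlap one another.
HIS4: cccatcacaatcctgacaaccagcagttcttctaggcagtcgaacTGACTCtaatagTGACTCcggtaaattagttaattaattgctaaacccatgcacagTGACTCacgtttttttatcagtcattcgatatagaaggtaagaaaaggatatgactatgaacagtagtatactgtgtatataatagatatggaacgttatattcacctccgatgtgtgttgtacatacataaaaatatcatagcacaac
LEU2: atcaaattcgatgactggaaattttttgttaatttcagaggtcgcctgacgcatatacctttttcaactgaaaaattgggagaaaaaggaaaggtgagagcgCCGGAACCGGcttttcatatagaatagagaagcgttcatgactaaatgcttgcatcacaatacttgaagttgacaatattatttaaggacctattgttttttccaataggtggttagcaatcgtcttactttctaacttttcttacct

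Next to LEU2, read towards it with 358 bases between, NFS1 (YCL017C, 92777 to 94270, minus strand) encodes the mitochondrial cysteine desulfurase that supplies sulfur for iron-sulfur clusters. With 427, 502, 381 and 396 reads it was measured most precisely of the 10, at 166.2, 178.6, 182.0 and 193.8 TPM. Its ndt80pch2 libraries were higher by a small margin, at 1.09-fold and 0.27 (SE 0.09) on the relative log2 scale. BIK1 (YCL029C, 68599 to 69921, minus strand), a microtubule plus-end protein that lies 265 bases from HIS4 and is read in the same direction, had 27.7, 20.9, 21.0 and 17.7 TPM. These came from 63, 52, 39 and 32 reads, and the strains overlapped. RNQ1 (YCL028W, 70150 to 71367, plus strand), which encodes the protein of the [PIN+] prion and is read away from BIK1, had 71.1, 58.5, 60.4 and 60.0 TPM, again with overlap. HIS4, BIK1 and RNQ1, side by side, thus had relative log2 differences of 0.44, -0.16 and 0.05.

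Between GRX1 and HIS4 lie LSB5 and STE50. LSB5 (YCL034W, 61658 to 62722, plus strand), which binds the actin-nucleation factor Las17 and acts in endocytosis, had 269, 352, 206 and 200 reads. Its levels were 146.9, 175.7, 138.1 and 137.3 TPM, and the ndt80pch2 libraries were lower without overlap, at 0.854-fold. STE50 (YCL032W, 63441 to 64481, plus strand), the adaptor that joins the kinase Ste11 to its upstream partners in the pheromone and osmosensing pathways, had 42.5, 48.0, 53.5 and 52.7 TPM from 76, 94, 78 and 75 reads. Its ndt80pch2 libraries were higher without overlap, at 1.17-fold. On the relative log2 scale LSB5 stood at -0.07 (SE 0.12) and STE50 at 0.38 (SE 0.14).

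Of the 10 genes, all of which passed the filter of a mean of at least 1 TPM, 2 were at least 2-fold higher in ndt80pch2 relative to the median (GFD2 and LEU2) and 0 were at least 2-fold lower. Over all 5783 tested genes the shares were 1.59% higher and 0.986% lower, or 2.58% in all. Libraries were compared between strains on TPM before the median was subtracted, here and for each gene above. On that scale no library of one strain reached the other strain's range for 7 genes. Of these, 5 were higher in ndt80pch2 (GFD2, STE50, HIS4, LEU2, NFS1) and 2 lower (SRO9, LSB5). Over all tested genes 9.41% were higher and 42.4% lower. Since the genes were picked with this contrast known, nothing is read from these shares. At the closest libraries of the strains, the exact Poisson 95% intervals overlapped for 5 of the 7 (SRO9, LSB5, STE50, HIS4, NFS1) and were apart for GFD2 and LEU2. These intervals cover counting error only. Over all genes, libraries of the same strain differed by more than that (chi-square per degree of freedom 2.78 and 4.24). The intervals were not compared over all tested genes, so nothing is read from these counts either. The median relative log2 difference of the 10 was 0.19, against 0.00 over all tested genes. The 8 genes other than GFD2 and LEU2 lay between -0.16 and 0.44. For GRX1 and RNQ1 the sign turns with the scaling, since their differences before the median was subtracted were -0.04 and -0.10 and after it 0.10 and 0.05. LSB5, lower without overlap on TPM, stood at -0.22 before the subtraction and -0.07 after it. LEU2 passed the 2-fold line only after it, going from 0.93 to 1.07.

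The other genes of the stretch were compared between the strains with limma-trend on log2(TPM + 1) over all tested genes, with Benjamini-Hochberg adjustment. This asks whether genes of the same interval that were not picked also differed. With 2 libraries per strain, limma-trend passed 0 of 5783 genes as higher in ndt80pch2, although 1.59% were at least 2-fold higher relative to the median. A count of 0 by limma-trend therefore does not show that genes were alike, here or in the flanks and partners. Of the 12 others between SRO9 and NFS1, 10 could be tested, and 0 passed in either direction by limma-trend or by limma-voom, with 1 at an unadjusted p under 0.05. Over all tested genes, 0.0173% passed limma-trend (1 gene, PCH2) and 0.709% passed limma-voom. At an unadjusted limma-trend p under 0.05 there were 914 of 5783. The smallest adjusted p among the 10 was 0.3015 by limma-trend, and their median relative log2 difference was 0.21.

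FUS1, a cell fusion gene of mating that follows RNQ1, had 33, 39, 23 and 11 reads and a relative log2 difference of -0.56 (SE 0.38). HBN1 and FRM2, which encode nitroreductase-like proteins, stood at 0.64 and 0.33, and AGP1, an amino acid permease gene, at -0.00. In HBN1 and AGP1 the 2 ndt80pch2 libraries differed from each other, with 78.5 and 128.1 TPM for HBN1 and 363.6 and 257.5 for AGP1, so that the strains overlapped. MXR2, a mitochondrial methionine sulfoxide reductase gene, stood at 0.22, RRP7, of ribosomal RNA processing, at -0.36, and KCC4, a septin-associated kinase gene, at 0.09.

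Before LEU2, the Ty element gene YCL019W, whose copies elsewhere can share its reads, stood at 0.20. YCL020W, which overlaps it, had 0, 0, 0 and 13 reads and a relative log2 difference of 1.67 (SE 1.20), a fitted value that depends on the pseudocount since ndt80 was at 0. YCL021W-A had 3, 5, 6 and 6 reads and stood at 1.04 (SE 0.34), higher in ndt80pch2 without overlap. Before the median was subtracted its difference was 0.89, under the 2-fold line. YCL020W and YCL021W-A were the 2 of the 10 tested others at least 2-fold higher relative to the median, and 0 were at least 2-fold lower. YCL023C and YCL022C, which overlap KCC4 on the other strand, had 1 read each in library B alone and were not tested. In the R64 order LEU2 at 1.07 was therefore flanked by the Ty gene at 0.20, 908 bases away, and NFS1 at 0.27. Whether LEU2 and the Ty element lie there in these SK1 strains was not tested.

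Outside the stretch, 13 of the 15 nearest genes on the SRO9 side and 14 of 15 on the NFS1 side could be tested. On either side 0 passed limma-trend. An unadjusted limma-trend p under 0.05 was found for 1 and 2 genes, against 914 of 5783 over all tested genes. limma-voom called 1 gene, SPS22 on the SRO9 side, which acts in spore wall formation, at 105.9 ± 5.69 TPM against 143.3 ± 12.7 in ndt80pch2 (SD, n = 2; limma-voom adjusted p = 0.04555, limma-trend adjusted p = 0.284). The medians of the relative log2 difference were 0.17 and -0.08. The widest differences were those of SPS22 (0.58) and YCL042W (0.46) on the SRO9 side, and on the NFS1 side those of YCL001W-B, with 0, 0, 2 and 0 reads, and YCL001W-A, with 4, 0, 4 and 2.

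**Figure D3:**
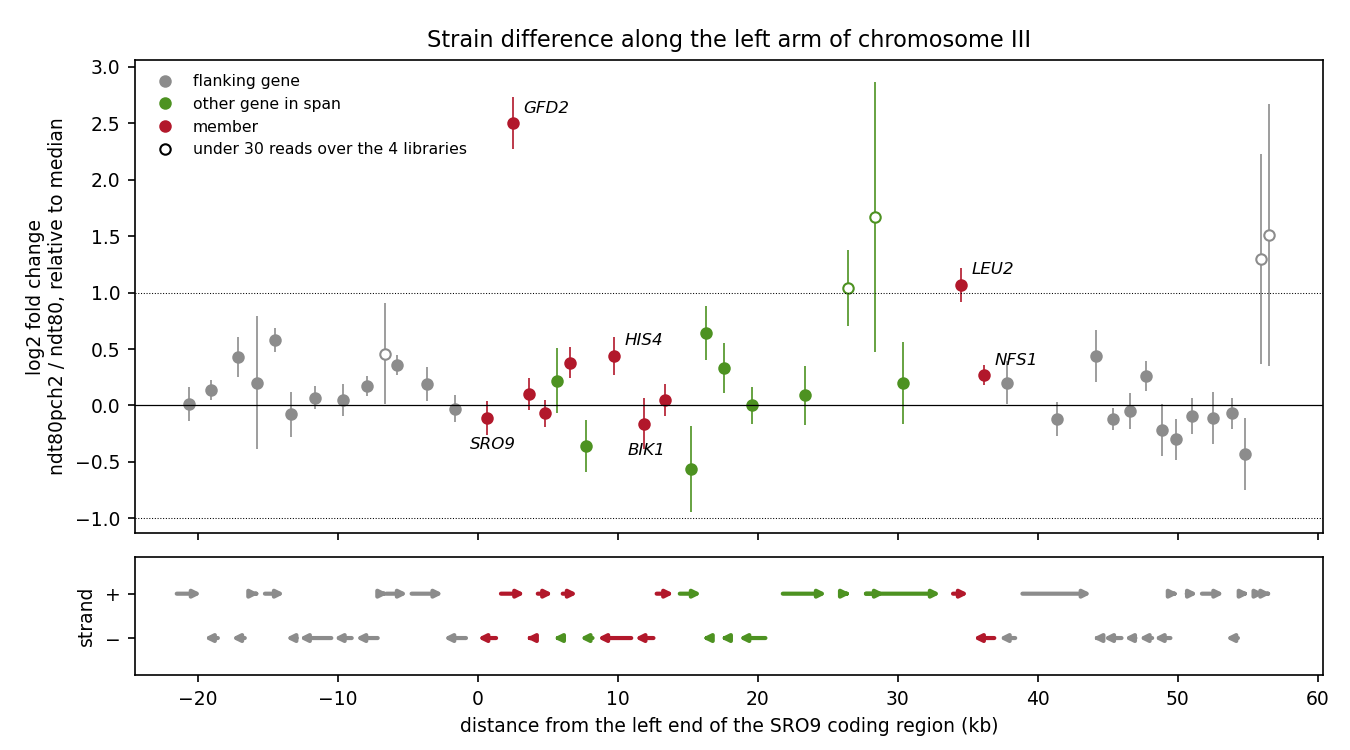
Log2 fold change of ndt80pch2 over ndt80, relative to the median of all tested genes, against the distance in kb from the left end of the SRO9 coding region, with SE bars from limma-trend; red points are the 10 genes, green the other genes of the stretch, grey the flanking genes, and open points have under 30 reads over the 4 libraries. Arrows below give position and strand in R64, which can differ from these SK1 strains. GFD2 at 2.50 and LEU2 at 1.07 stand above the dotted line of a 2-fold difference. So do the open points of YCL020W (1.67), YCL021W-A (1.04), YCL001W-B (1.51) and YCL001W-A (1.30). The nearest R64 neighbours of GFD2 and LEU2 lie between -0.11 and 0.27.

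Across chromosome III as a whole, the 163 tested genes had a median relative log2 difference of 0.09, and 7.36% were at least 2-fold apart. Outside the SRO9 to NFS1 stretch the median was also 0.09 over 143 genes, and 8 genes, 5.59%, were at least 2-fold apart, against 2.44% of 5620 genes on the other chromosomes. None of those 8 had more than 24 reads over the 4 libraries, whereas GFD2 had 197 and LEU2 612. Among genes with a mean of at least 10 TPM, 0 of 117 on chromosome III outside the stretch were at least 2-fold apart, and 30 of 5062 on the other chromosomes.

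The partners of the 10 genes were taken from 9 lists, and over 112 tested genes 0 passed in either direction by limma-trend or limma-voom. Of these, 20 had an unadjusted limma-trend p under 0.05, against 914 of all 5783 tested genes. The median relative log2 difference of the 112 was -0.01. For HIS4, the 6 other genes of histidine synthesis had a median of -0.02. HIS3, also a common marker in strain construction, stood at -0.97, with 34.8 ± 0.43 TPM in the ndt80 libraries against 16.3 ± 7.43 (SD, n = 2; limma-trend adjusted p = 0.2865), HIS6 stood at -0.36 and the most abundant, HIS5, at -0.07. For LEU2, the 12 genes of leucine and branched-chain synthesis had a median of -0.01. LEU1, which makes the substrate of the Leu2 enzyme, was the most abundant at 730.8 ± 9.11 and 520.1 ± 58.3 TPM, a relative log2 difference of -0.35 (limma-trend adjusted p = 0.2552), and ILV3 stood at -0.35. LEU2 at 1.07 (SE 0.15) lay outside the range of its pathway list, -0.35 to 0.31, but it was picked with this contrast known. HIS4 at 0.44 (SE 0.17) was within an SE of the highest of its own list, HIS1 at 0.35 (SE 0.23).

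For GFD2 and SRO9, the 11 mRNA export and La-motif genes had a median of -0.04 and ranged from -0.38 (ZDS1) to 0.21. NUP42, a nuclear pore protein of the export route, stood at -0.32 and NAB2, the most abundant, at 0.07. GFD2, picked with this contrast known, had no counterpart of its size there. For STE50, the 18 genes of the pheromone and osmosensing pathways had a median of -0.11, with FUS1 at -0.56, the G protein gene GPA1 at -0.44 and OPY2, a membrane anchor of Ste50 and the most abundant, at 0.15. For NFS1, the 18 genes of iron-sulfur cluster assembly had a median of -0.03. The scaffold gene ISU1 was the most abundant, at 739.7 ± 60.3 and 847.9 ± 112.8 TPM, and CIA1 (0.68) and the frataxin gene YFH1 (-0.58) stood farthest out.

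For GRX1, the 15 glutaredoxin and thioredoxin genes had a median of 0.12, with the peroxiredoxin gene TSA1 at 0.42 and GRX8, which had 2 to 7 reads per library, at -0.56. For RNQ1, the 9 recovered prion and chaperone genes had a median of -0.03 and a range of -0.22 (SWI1) to 0.13 (SIS1, whose product binds Rnq1), with SSA1 most abundant at -0.09. For BIK1, the 13 microtubule genes had a median of -0.03, with BIM1 at -0.45, KAR9 at -0.30 and TUB1 most abundant at -0.03. For LSB5, the 10 Las17-binding genes had a median of 0.03, with LSB1 at 0.43, LSB6 at -0.39 and PIN3 most abundant at 0.06.

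**Figure D4:**
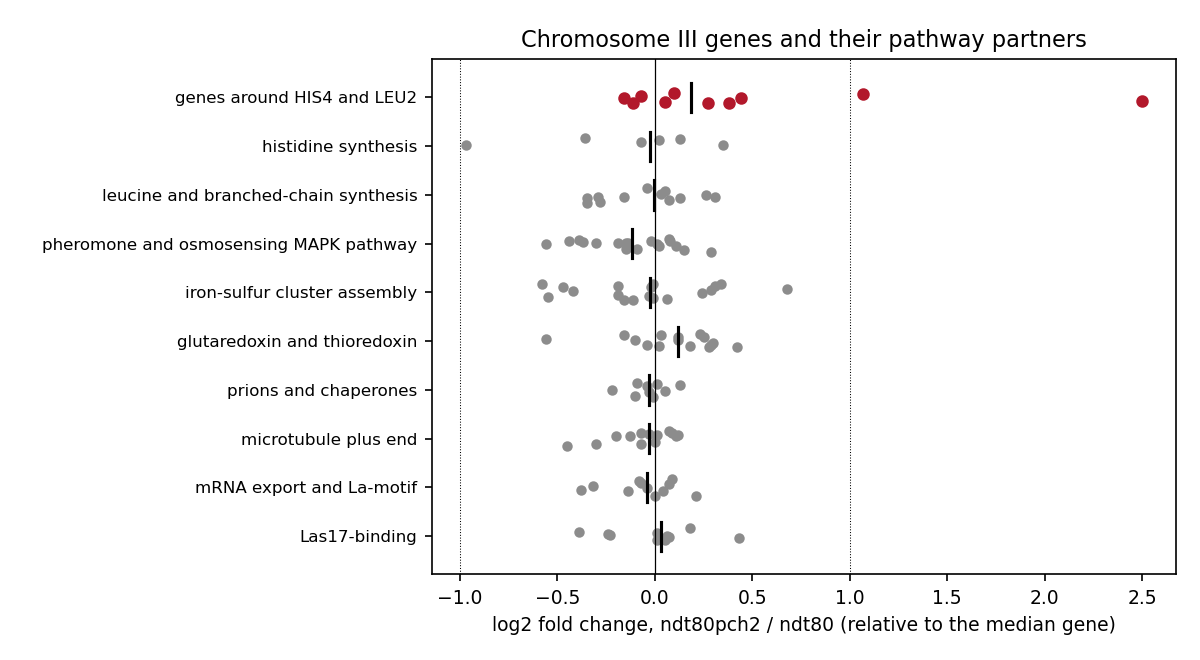
Log2 fold change of ndt80pch2 over ndt80, relative to the median of all tested genes, for the 10 genes (red) and the tested members of 9 partner lists (grey), with black lines at each median and dotted lines at a 2-fold difference. The partner genes lie between -0.97 and 0.68, and GFD2 at 2.50 and LEU2 at 1.07, picked with this contrast known, lie beyond them.

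The genes whose pattern over the 4 libraries was most like that of GFD2 or LEU2 were found by the Euclidean distance of log2(TPM + 1) after each gene was centred on its own mean. For GFD2 they were YNL043C (distance 0.136), YBR126W-A (0.254) and YKL153W (0.357), with at most 5 reads in any library. For LEU2 they were MBA1 (0.0714), AQY2 (0.118) and RNR3 (0.196). MBA1, which binds mitochondrial ribosomes, had 34.7, 40.6, 67.4 and 77.7 TPM. MBA1 (YBR185C) is on chromosome II, with the systematic name next to that of PCH2 (YBR186W), the gene deleted in ndt80pch2 alone. Whether that deletion bears on the level of MBA1 was not tested. RNR3, a ribonucleotide reductase subunit gene, had 15.4, 16.5, 29.3 and 30.8 TPM, and AQY2, an aquaporin gene, had 7 to 14 reads per library. With 4 libraries, likeness of this kind rests on the strain difference and the order within each strain.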

How the data were processed

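Messenger RNA of 2 SK1 strains was measured in 2 samples each. Per the labels' protocols, rRNA was depleted, poly(A) RNA enriched and paired-end libraries sequenced; the sources used here do not give whether counting used strand. The submitters' processing notes name HISAT2 2.1.0, HTSeq 0.9.1, FastQC, DESeq2 2.11.40.6 and the R64 (sacCer3) build, without saying what each was used for. For each strain the authors deposited a single value per gene, in a column with no name. Its unit was inferred from the values as the mean of 2 libraries' TPM. The deposited coordinates of all 10 genes match R64.

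Each value times coding length was solved for whole reads of 2 libraries, within 0.55 of the last printed digit. 6645 of 6664 nuclear genes were solved, and 19 with no or several solutions were left out. Coding length came from the R64 annotation, and differed from the deposited gene length for 332 genes; for 11 of these it was found from the values. The libraries cannot be matched to the samples' replicate numbers. Counts of A and B, and of C and D, differed beyond sampling noise (chi-square per degree of freedom 2.78 and 4.24), so none was a duplicate. Over the 10 genes alone the chi-square per gene was 1.69 and 0.281.

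Genes with a mean of at least 1 TPM (5783) were fitted with limma 3.58.1 (limma-trend) in R 4.3.3 on log2(TPM + 1), genotype as the only term, with Benjamini-Hochberg adjustment and calls at an adjusted p under 0.05. Fold changes on this scale understate low genes and had the median of all tested genes subtracted, which the p-values did not. limma-voom used the recovered reads with TMM factors computed in own code. The solving and the fit were run on simulated data as a check of the code. The simulated spread of the fit was not set from these libraries, so no power for these data is read from it. Python 3.11.15 with scipy 1.17.1, numpy 2.4.6, pandas 2.3.3 and matplotlib 3.10.9 served for the rest.

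The 10 genes, the partner lists and the markers were chosen with earlier results of these data known. Named were the 10 genes, every other gene of the stretch, the 2 widest differences on each flank, in each partner list the 2 widest and the most abundant, the 3 genes most like GFD2 and LEU2, and the deleted genes. Alternatives were limma-voom, median-of-ratios scaling, pseudocounts of 0.1 and 5, no filter, a filter at 10 TPM, each library left out, and the deposited columns read row by row.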

Additional observations from a re-analysis of the deposited data

How the results depend on the processing

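Over all tested genes limma-trend called 1, limma-voom 41, and limma-trend with a mean of at least 10 TPM 4; with each library left out the count was 0 to 1. Among the 30 flanking genes limma-voom called 1. The count of other genes in the stretch and that of partner genes stayed at 0 in every setting run. The chromosome III median of 0.09 was 0.06 with a mean of at least 10 TPM and 0.05 to 0.11 with each library left out. The number of the 10 genes at least 2-fold apart, 2, was 1 to 2 with each library left out, LEU2 falling under the line without A or D. Read row by row, a setting chosen after seeing the data, it was 4, beside 39.3% of 6239 genes under the same reading, and GFD2 stood at -1.62, the other way round, since its row mixes libraries of 2 genes. Otherwise GFD2 ranged from 1.98 (pseudocount 5) to 2.67 and LEU2 from 0.91 to 1.24. GRX1, LSB5, BIK1 and RNQ1 each took the other sign with 1 library left out. In the fits with 1 library left out, the lone library of a strain is assumed to vary like the other group. No paired analysis was possible because the deposited columns hold 1 value per strain and carry no replicate numbers. Depth limits the low genes most: GFD2 in ndt80 rests on 18 reads in each library.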
